A study of Mus musculus with 6 samples.

Results

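The 10 genes described here encode glutathione transferases: Gsta4 of the alpha class, Gstm1, Gstm2 and Gstm5 of the mu class, Gstt1 and Gstt2 of the theta class, Gsto1 of the omega class, and the membrane-bound enzymes Mgst1, Mgst2 and Mgst3. They were measured among 19938 genes, each represented by 1 probe set, and all 10 had a tested value with no filter on low signals. The set was chosen by the measured VPA minus control difference of Gsta4, which was large, and was filled with relatives by name, so the difference of Gsta4 is described without a test. The arrays compared 3 control samples with 3 samples treated with valproic acid (VPA), an antiepileptic fatty acid that inhibits class I histone deacetylases. The titles and the design text name the cells as murine prostate cancer cells. The sources used here do not give dose, duration or line. Other fields of the same samples contradict the titles: the controls carry the strain 129SV and differentiated stem cells, and the VPA samples carry the strain Stra8-EGFP/Rosa26 and undifferentiated stem cells. Treatment and these strain and cell type names divide the arrays in the same way and cannot be told apart, so "VPA" and "control" below mean the libraries titled so. All samples were described as biological replicates, and no genetic change is named for the prostate cells.

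Glutathione transferases join the thiol of the tripeptide glutathione to electrophiles such as drugs, quinones and aldehydes made by lipid peroxidation, and the conjugates are then exported and trimmed to mercapturates. The cytosolic alpha, mu, pi, theta and omega classes form one superfamily, and the microsomal enzymes belong to the unrelated MAPEG family of membrane proteins, which also serves leukotriene synthesis. Many of these genes respond to the transcription factor NRF2 through antioxidant response elements, and silencing of the pi class gene by DNA methylation is a well-known feature of human prostate cancer.

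The 6 arrays had median log2 values from 7.15 to 7.18 over 35556 probe sets. Marker levels were compared with each array's median over the 19938 tested genes, which is not the median over probe sets just given. Of 13 measured markers of prostate epithelium, 10 lay below the median of the tested genes in every array. Among them were Epcam (log2 5.79 to 6.17), Krt5 (6.05 to 6.52) and the secretory gene Pbsn (3.41 to 3.76), while Krt8 lay at 7.25 to 7.99 and Hoxb13 at 7.86 to 8.04. Of 13 embryonic stem cell markers, 11 lay below the median of the tested genes in every array, including Pou5f1 (4.99 to 5.86), Nanog (6.08 to 6.56) and Zfp42 (4.13 to 4.43). Sox2 (10.98 to 11.71) and Klf4 (10.09 to 10.47) lay above it. The stromal genes Dcn (13.98 to 14.13) and Vim (13.35 to 13.68) were high in all 6, and 8 of 9 stromal markers were not below the median throughout. Signals of different probe sets are not on a common scale and the values carry no detection call, so these levels describe the libraries and name no cell type. No gene of these lists, or of the leukocyte, endothelial and hepatocyte lists, passed limma's test between the groups. The mean log2 value of the stem cell markers was 6.70 to 6.83 in control and 6.51 to 6.66 in VPA arrays. That of the stromal markers was 10.11 to 10.20 in control and 10.02 to 10.10 in VPA arrays. In the other lists the means of the groups overlapped. The part of these levels in the differences below was not tested.

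Gsta4 showed the largest difference of the family. Its product is the alpha class enzyme with high activity towards 4-hydroxynonenal, a toxic aldehyde of lipid peroxidation. The log2 value of Gsta4 (probe set 10587315) was 7.43, 7.63 and 7.76 in control replicates 1, 2 and 3, and 9.30, 8.85 and 8.82 in VPA replicates 1, 2 and 3. All VPA arrays lay above all control arrays, with a gap of 1.07 between the closest values. The means were 7.61 ± 0.17 (SD, n = 3) and 8.99 ± 0.27 (SD, n = 3), a difference of 1.39 (SE 0.142), or 2.61-fold. It was the 7th largest difference among all genes. Leaving out single arrays moved it between 1.23 (without VPA replicate 1) and 1.47 (without VPA replicate 3). In a whole-cell RNA extract, a higher level per cell and more cells with the transcript cannot be told apart.

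Gstt1 and Mgst3 were the other members that rose. Gstt1 encodes the theta class enzyme that acts on small halogenated compounds. Its log2 values (probe set 10370000) were 8.33, 8.83 and 8.56 in the controls and 9.15, 9.11 and 9.32 with VPA. Control replicate 2 was the highest control, and the groups did not overlap. Gstt1 rose 1.54-fold (log2 0.62, SE 0.128, 95% interval 0.33 to 0.91, higher in 3 of 3 VPA arrays), with an adjusted p of 0.0417 in limma's moderated test with Benjamini-Hochberg adjustment over all genes. Mgst3, a microsomal transferase and peroxidase of the MAPEG family, lay at 6.74, 6.98 and 6.79 in the controls and at 7.69, 7.42 and 7.36 with VPA (probe set 10359861). Here VPA replicate 1 was highest, as it was for Gsta4, and the groups again did not overlap. Mgst3 rose 1.57-fold (log2 0.65, SE 0.111, 95% interval 0.40 to 0.90), with a limma adjusted p of 0.0229. Both calls depended on single arrays. With an array left out, the limma adjusted p of Gstt1 was 0.140 (control 1), 0.120 (control 3), 0.124 (VPA 1), 0.112 (VPA 2) and 0.0652 (VPA 3). That of Mgst3 was 0.103 (control 1), 0.0821 (control 3), 0.0800 (VPA 1) and 0.0764 (VPA 2). With every probe set of the table in the test, the adjusted p was 0.198 for Gstt1 and 0.151 for Mgst3. The differences themselves stayed between 0.50 and 0.75 for Gstt1 and between 0.55 and 0.72 for Mgst3 over the settings tried.

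**Figure D1:**
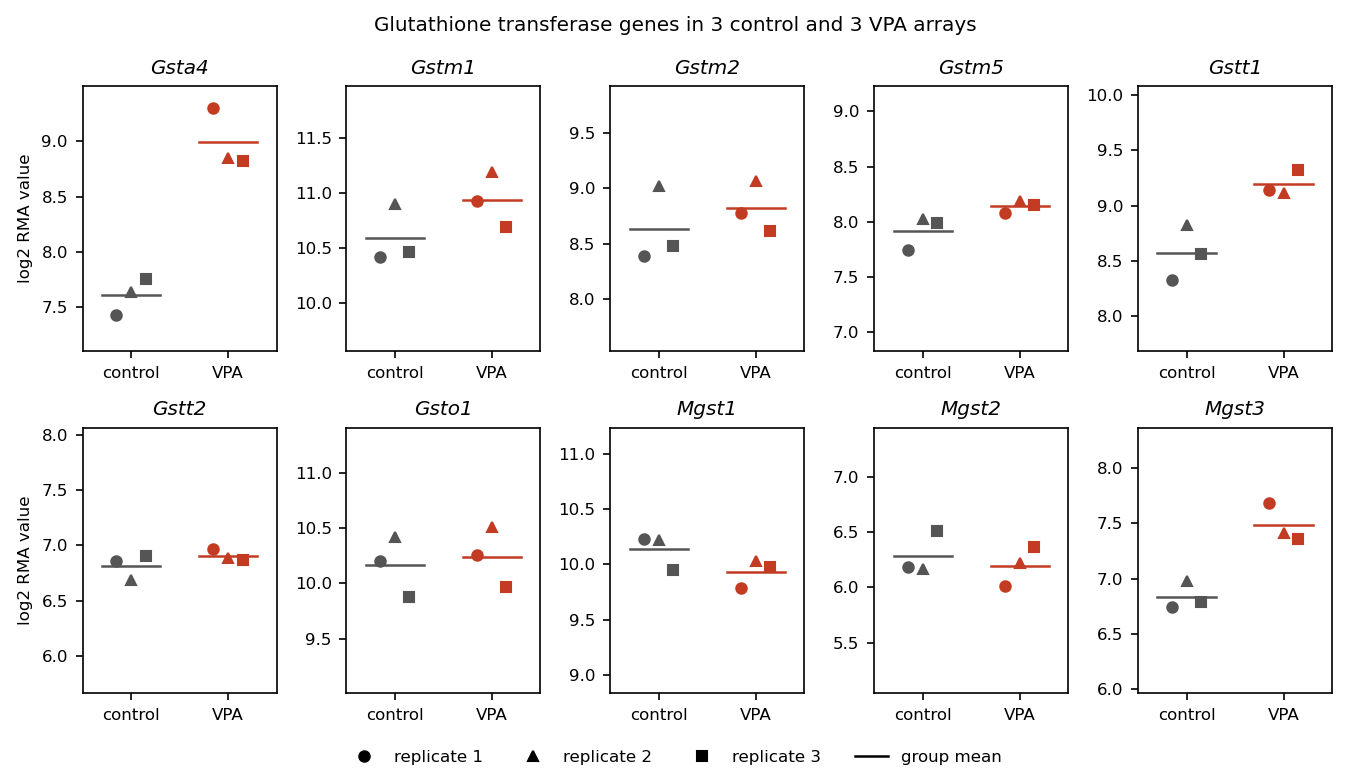
The panels plot the log2 RMA value of each of the 10 genes in every array, with control in grey, VPA in red, a symbol for each replicate number and a line at each group mean; every panel spans the same number of log2 units. Gsta4 separates by 1.07 between the closest control and VPA arrays, and Gstt1 and Mgst3 separate by 0.29 and 0.39. In Gstm1, Gstm2, Gstm5 and Gsto1 replicate 2 is the highest array of both groups.

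The mu class genes lay higher on average with VPA, but none passed. Mu class enzymes conjugate a broad range of aromatic electrophiles. Gstm1 (probe set 10501229) had log2 values of 10.42, 10.90 and 10.46 in the controls and 10.93, 11.19 and 10.69 with VPA. The groups overlapped, because control replicate 2 exceeded VPA replicate 3, and the difference was 0.34 (SE 0.157, 95% interval -0.01 to 0.70, limma adjusted p = 0.285). Gstm2 (probe set 10501222) overlapped more, at 8.39, 9.02 and 8.48 against 8.78, 9.07 and 8.62, with a difference of 0.19 (SE 0.173, limma adjusted p = 0.585). In both genes the array numbered 2 was the highest of its group: it exceeded the mean of the other arrays of its group by 0.46 and 0.38 for Gstm1 and by 0.59 and 0.37 for Gstm2, in control and VPA respectively. These gaps within a group were larger than the differences between the groups. Gstm5 (probe set 10495243), a mu class gene known for expression in brain and testis, lay at 7.74, 8.02 and 7.99 in the controls and 8.08, 8.19 and 8.15 with VPA. Its groups did not overlap, by a margin of 0.06, but the difference of 0.22 (SE 0.0984, 95% interval 0.0024 to 0.44) did not pass (limma adjusted p = 0.271). In Gstm5 too, the array numbered 2 was the highest of its group. It exceeded the mean of the other arrays by 0.16 in control and 0.08 in VPA. Mu class genes are close in sequence and their probe sets may share signal, so the values of single mu genes are uncertain.

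None of the remaining members passed. Gsto1 encodes the omega class enzyme, a thiol transferase and dehydroascorbate reductase. Its log2 values (probe set 10463836) of 10.20, 10.42 and 9.88 in the controls were nearly matched, number for number, by 10.26, 10.51 and 9.96 with VPA. The group difference was 0.08 (SE 0.164, limma adjusted p = 0.835), while replicates 2 and 3 of a group differed by more than that. Gstt2 (probe set 10370013), the other theta class member, lay at 6.86, 6.69 and 6.90 against 6.96, 6.88 and 6.87, a difference of 0.09 (SE 0.0899, limma adjusted p = 0.621). Mgst1 (probe set 10542470), an abundant detoxifying enzyme of the endoplasmic reticulum and outer mitochondrial membrane, lay at 10.23, 10.22 and 9.95 against 9.79, 10.03 and 9.98. Its difference of -0.20 (SE 0.108, 95% interval -0.45 to 0.04) was the lowest of the set and did not pass (limma adjusted p = 0.359). Mgst2 (probe set 10491952), which can form leukotriene C4, lay at 6.18, 6.16 and 6.51 against 6.01, 6.22 and 6.36 (difference -0.09, SE 0.125, limma adjusted p = 0.744). The 3 MAPEG members thus spanned from -0.20 to 0.65.

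Of the 9 members other than Gsta4, 2 were called higher with VPA at a limma adjusted p under 0.05 and none lower, against a background of 1.71% of all genes called higher and 0.632% called lower. The contrast that chose the set is the same, so nothing is read from this count. At an unadjusted p under 0.05, 3 of the 9 were higher and none lower, where 9.82% of all genes were higher and 8.3% lower. The median difference of the 10 was 0.21, and that of the 9 members other than Gsta4 was 0.19, beside -0.04 over all genes tested. The groups did not overlap in 3 of the 9 members other than Gsta4, all higher with VPA (Gstm5, Gstt1 and Mgst3). Of all genes, 11.1% lay wholly higher and 12% wholly lower, and nothing is read from this count either. The background itself moved with single arrays: 467 genes were called in all. With an array left out, 20 (control 1), 515 (control 2), 71 (control 3), 66 (VPA 1), 72 (VPA 2) and 815 (VPA 3) were called. Of the 9 members other than Gsta4, Gstt1 and Mgst3 were called without control 2, and Mgst3 without VPA 3. None of the 9 was called in the other 4 of these fits. With every probe set of the table in the test, 2 probe sets were called in all, and none of the 9.

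Of 26 further family entries, 20 had a tested gene and none passed, with a median difference of 0.06. At an unadjusted p under 0.05 there were 5 higher and 1 lower of the 20, beside the 9.82% and 8.3% of all genes. The largest difference was that of Gstt3, a theta class gene, at 7.56, 8.21 and 7.49 in the controls and 8.75, 8.73 and 8.24 with VPA. Its groups did not overlap, by a small margin between control replicate 2 and VPA replicate 3, and the difference of 0.82 (SE 0.200) had a limma adjusted p of 0.0689. That p was 0.0188 with control replicate 2 left out, 0.0276 with VPA replicate 3 left out and 0.0336 with array weights. Gstp3, a minor pi class gene, was at 6.63, 6.60 and 6.57 against 6.32, 6.32 and 6.29, a difference of -0.29 (SE 0.0781, limma adjusted p = 0.0916). The main pi class gene Gstp1 differed by 0.17 (SE 0.0975, limma adjusted p = 0.399). Gsta3, the alpha class relative of Gsta4 with its own probe set, differed by -0.03 (SE 0.139, limma adjusted p = 0.917). Probe sets annotated with Gsta1, Gsta2 and 2 further symbols together gave values that name no single gene. There were 4 of them, with differences from -0.17 to -0.09. No other alpha class probe set measured here shared the high VPA values of Gsta4. However, Gsta3 (log2 5.78 to 6.26) and these 4 (5.39 to 6.79) lay below the array medians over all probe sets (7.15 to 7.18). They carry no detection call, which limits this comparison.

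**Figure D2:**
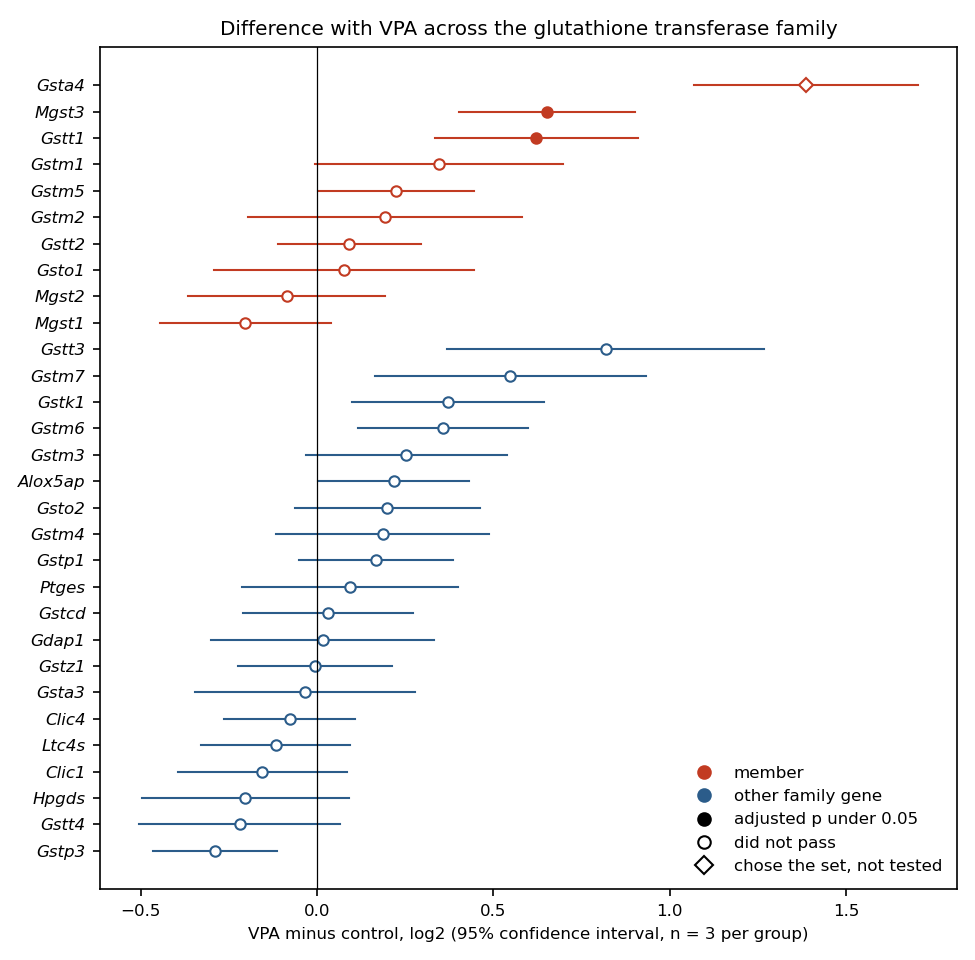
Each row is a gene, with the VPA minus control difference on the log2 scale as a point and its 95% confidence interval as a line; members are red, other family genes blue, filled circles passed limma's test over all genes, and the open diamond is Gsta4, which chose the set and is not tested. Gsta4 lies at 1.39, Mgst3 (0.65) and Gstt1 (0.62) are the filled circles, and Gstt3 (0.82) has the largest difference among the open circles.

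The theta and mu genes each sit next to one another on a chromosome, which allows a view by position in the RefSeq order of mouse assembly GRCm38.p6. On chromosome 10 the order Gstt3, Gstt1, Gstt4 and Gstt2 gave differences of 0.82, 0.62, -0.22 and 0.09, and of these 4 Gstt1 passed. The flanking genes, taken by position after the members' values were known, gave 0.08 (Cabin1) and 0.07 (Ddt) on one side and -0.02 (Mif) and 0.01 (Derl3) on the other. So the higher values in this cluster belonged to adjacent genes, Gstt3 and Gstt1, and the genes on both sides of that pair had differences near or below 0. On chromosome 3 all 7 mu genes had positive differences, from 0.19 for Gstm4 and Gstm2 to 0.55 for Gstm7, with none passing. The noncoding gene 4933431E20Rik beside Gstm5 had a difference of 0.47 (limma adjusted p = 0.0644), and Ampd2 beyond Gstm4 had -0.02. In each of the 7 mu genes the array numbered 2 lay above the mean of the other arrays of its group, in both groups, by 0.16 to 0.59 in control and by 0.08 to 0.38 in VPA arrays. Around Gsta4 on chromosome 9, the nearest tested genes Rn7sk and Omt2a differed by -0.03 and -0.05. Their mean log2 values in control and VPA arrays were 13.78 and 13.75 for Rn7sk and 2.85 and 2.80 for Omt2a. The low signal of Omt2a has no detection call, which limits what its difference shows. Beside Mgst3 on chromosome 1, Aldh9a1, an aldehyde dehydrogenase gene, differed by 0.29 (limma adjusted p = 0.161) and Lrrc52 by -0.10.

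**Figure D3:**
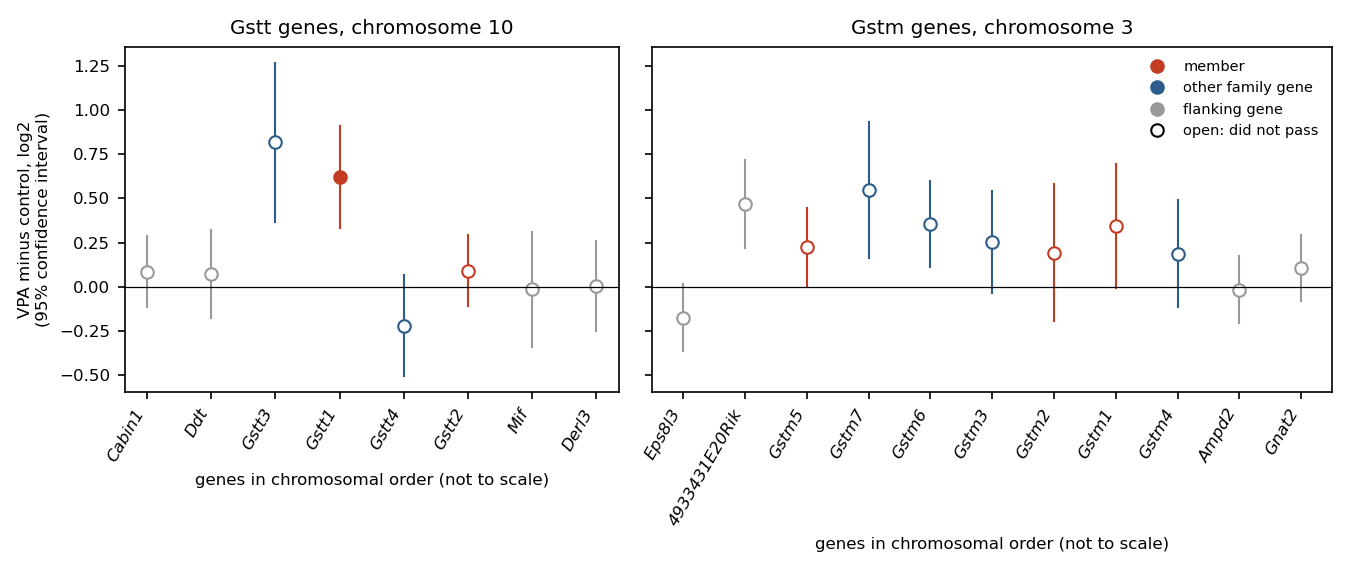
Genes stand in chromosomal order, not to scale, with the VPA minus control difference on the log2 scale as a point and its 95% confidence interval as a line; red marks members, blue other family genes and grey the flanking genes. Gstt3 (0.82) and Gstt1 (0.62) stand above their neighbours on chromosome 10, whereas the 7 mu genes on chromosome 3 lie between 0.19 and 0.55 with no filled point.

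Promoter sequences of RefSeq on assembly GRCm38.p6 matched 8 of the 10 members, in 10 windows since Gstm1 and Mgst1 have more than 1 start. Gsta4 and Gstt2 were not matched. The 250 bases before each start were searched on both strands for TGACNNNGC, the core of the antioxidant response element that NRF2 binds with small Maf proteins. It was present in 2 of the 10 windows, those of Gstm5 and of 1 start of Mgst1, and in 10.2% of 32851 promoters of the same length. The windows of Gstt1 and Mgst3 are shown because both genes rose, and that of Gstm5 because it holds the motif, in capitals at position -42 from the start. The Gstt1 window is chr10:75797732-75797981 on the minus strand, that of Mgst3 is chr1:167393842-167394091 on the minus strand, and that of Gstm5 is chr3:107895604-107895853 on the plus strand; each is written 5′ to 3′ on its gene's strand.
Gstt1: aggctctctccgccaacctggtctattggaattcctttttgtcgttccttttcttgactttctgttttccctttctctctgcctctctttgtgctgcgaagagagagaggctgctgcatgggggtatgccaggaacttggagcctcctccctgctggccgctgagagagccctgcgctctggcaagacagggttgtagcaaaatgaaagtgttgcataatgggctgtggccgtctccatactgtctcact
Mgst3: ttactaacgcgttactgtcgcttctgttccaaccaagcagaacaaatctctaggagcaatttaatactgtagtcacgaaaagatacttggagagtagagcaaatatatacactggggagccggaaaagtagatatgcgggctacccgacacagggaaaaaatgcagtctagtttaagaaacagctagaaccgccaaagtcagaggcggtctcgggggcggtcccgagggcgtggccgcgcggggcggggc
Gstm5: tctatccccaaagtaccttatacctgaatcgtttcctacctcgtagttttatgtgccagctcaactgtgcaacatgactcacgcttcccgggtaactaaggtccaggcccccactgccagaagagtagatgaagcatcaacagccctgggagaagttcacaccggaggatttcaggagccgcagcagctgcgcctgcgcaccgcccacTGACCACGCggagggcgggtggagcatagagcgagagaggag
The motif was absent from the windows of Gstt1 and Mgst3. Gstm5 holds it, as does 1 start of Mgst1, and neither gene passed. Only the 250 bases before each start were searched, and Gsta4 had no window. A link between the motif and the differences was not tested. The windows of Gstt1 and Mgst3 differed in their count of CpG dinucleotides but little in GC content (52.8% and 51.6%). The Mgst3 window holds 17 CpG dinucleotides, more than 76.5% of all promoter windows hold. The Gstt1 window holds 6, the median of all windows.

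Besides the 10 members, 124 genes of 7 lists were tested, the 20 further family genes included, with a median difference of -0.00038. Of these, 1 rose (0.806%) and 2 fell (1.61%), beside 1.71% and 0.632% of all genes. The gene that rose was Hagh, which encodes glyoxalase II, the enzyme that frees glutathione from lactoylglutathione. Its log2 values were 11.20, 11.45 and 11.49 in the controls and 12.07, 12.05 and 11.86 with VPA, without overlap. Hagh rose 1.53-fold (log2 0.61, SE 0.107, limma adjusted p = 0.0251). It belongs to 8 tested genes of glyoxalase, sulfur and aromatic acid metabolism, of which 1 rose, none fell and 7 did not pass (median 0.09).

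Dpep1, a dipeptidase that cleaves the cysteinyl-glycine bond in the mercapturate pathway, lay at 6.55, 6.55 and 6.52 in the controls and 6.12, 6.19 and 6.11 with VPA. It fell by 0.40 on the log2 scale (SE 0.0791, limma adjusted p = 0.0381), and its spread within each group was far smaller than the gap between them. All its values lay below the array medians over all probe sets (7.15 to 7.18) and carry no detection call, which limits this result. It was the 1 gene that fell among 19 tested genes of glutathione synthesis and turnover and among 14 of conjugate efflux and the mercapturate pathway, where none rose and 18 and 13 did not pass (medians 0.08 and -0.03). In the former list Gclc and Gclm, the subunits of the enzyme that limits glutathione synthesis, differed by -0.05 and 0.15, and the reductase gene Gsr by -0.31 (limma adjusted p 0.793, 0.370 and 0.123). These genes and those of the NRF2 list below that the naming rule does not cover were added after their values were seen. Adh7, an alcohol dehydrogenase that acts on retinol and long-chain alcohols, was the 1 of 21 genes of aldehyde clearance that fell, with none that rose and 20 that did not pass (median 0.01). It lay at 11.12, 11.03 and 10.94 against 10.38, 10.69 and 10.45, and fell by 0.52 (SE 0.104, limma adjusted p = 0.0379). All 3 calls ended when single arrays were left out. The limma adjusted p of Hagh was then 0.0986 (control 1), 0.0579 (control 3), 0.105 (VPA 1) and 0.101 (VPA 2). With any of the 6 arrays left out it was between 0.0625 and 0.141 for Dpep1 and between 0.0572 and 0.151 for Adh7, and with a second quantile normalization it was 0.0724 for Dpep1.

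**Figure D4:**
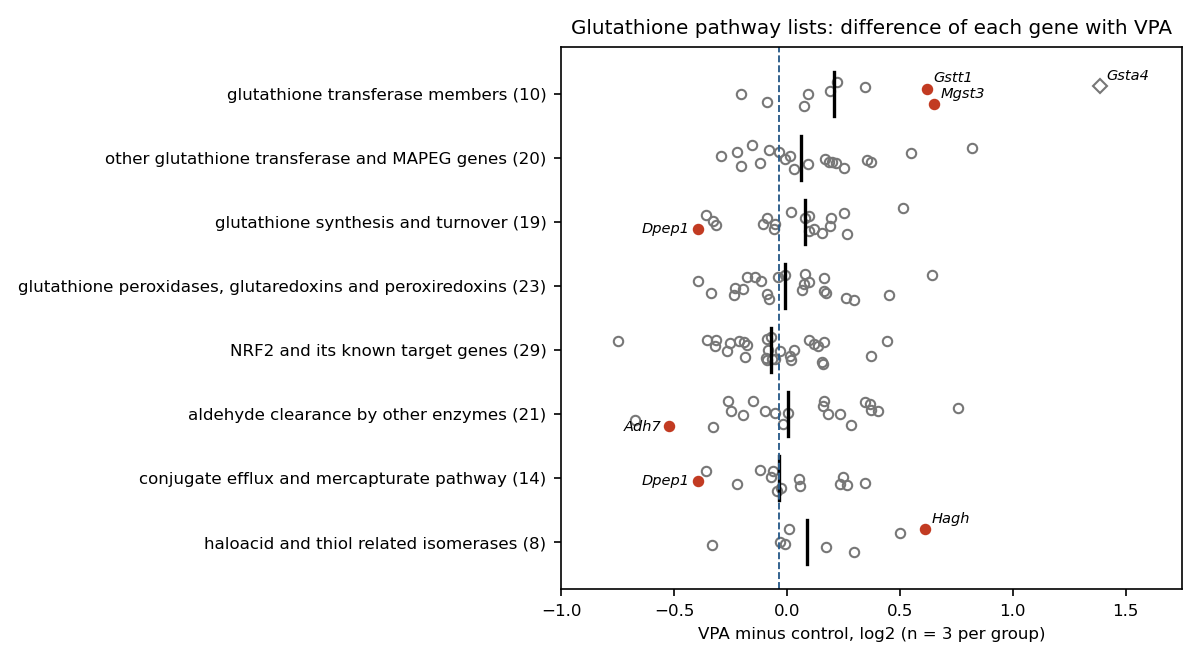
Each point is a gene, placed by its VPA minus control difference on the log2 scale within its list (number of tested genes in brackets); black bars are list medians, the dashed line is the median of all genes (-0.04), red points passed limma's test, and the open diamond is Gsta4, which chose the set and is not tested. Besides the members in the top row, Hagh lies to the right at 0.61, and Dpep1 (in 2 lists) and Adh7 lie to the left at -0.40 and -0.52.

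A list of NRF2, its partners and target genes, which holds no transferase, had 29 tested genes, of which 11 lay above and 18 below a difference of 0, with a median of -0.07. None was called in either direction, beside 1.71% of all genes called higher and 0.632% called lower. An unadjusted p under 0.05 was found for 2 higher and 5 lower genes of the 29, beside 9.82% and 8.3% of all genes. Aox1, an aldehyde oxidase, was at 8.15, 8.69 and 7.96 against 7.44, 7.71 and 7.41 (difference -0.75, SE 0.172, limma adjusted p = 0.0581), without overlap. Aox1 passed with the filter on low values (0.0462), a second quantile normalization (0.0379) and a trended robust prior (0.0486). Keap1, the adaptor that directs NRF2 to degradation, differed by -0.35 (SE 0.0881, limma adjusted p = 0.0739), and Nfe2l2, the gene of NRF2 itself, by -0.19 (SE 0.0911, limma adjusted p = 0.314). The classical targets Nqo1 and Hmox1 differed by -0.21 and -0.18 (limma adjusted p 0.575 and 0.427). The highest differences of the list were those of the biliverdin reductase gene Blvrb, at 0.44 (SE 0.111, limma adjusted p = 0.0743), and the carbonyl reductase gene Cbr1, at 0.37 (SE 0.155, limma adjusted p = 0.246), and neither gene's groups overlapped. Among 23 tested genes of glutathione peroxidases, glutaredoxins and peroxiredoxins none passed either, with a median of -0.01. The thioredoxin-glutathione reductase gene Txnrd3 and the glutaredoxin gene Glrx came closest, at 0.45 (SE 0.110, limma adjusted p = 0.0672) and 0.64 (SE 0.157, limma adjusted p = 0.0689). Glrx passed with control replicate 2 left out (0.0205) and with array weights (0.0365), and Txnrd3 with VPA replicate 3 left out (0.0445) and with a trended robust prior (0.04996).

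Genes with a profile like that of Gsta4 were sought by the root mean square difference between log2 values centred on each gene's own mean, over the 6 arrays. Epb41l5, a band 4.1 family gene, was nearest at 0.0769, followed by the fatty acid receptor gene Cd36 (0.0856), the zinc finger gene Plag1 (0.0909), the tetraspanin gene Tspan2 (0.148) and the calcium-binding grancalcin gene Gca (0.149). All 5 had their highest value in VPA replicate 1 and their lowest in control replicate 1, as Gsta4 did. Their VPA minus control differences were 1.30, 1.30, 1.37, 1.14 and 1.21. As likeness to Gsta4 over the same 6 arrays selected these genes, both this order of arrays and these differences are a description. Among the other members, Mgst3 and Gstt1 were the most alike, at 0.384 and 0.443, the 171st and 346th nearest of all genes, and Mgst1 was the least alike, at 0.846.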

How the data were processed

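Per the labels' protocols, RNA of each sample was run on its own Affymetrix Gene 1.0 ST mouse array. The authors deposited log2 values, for which the submitters' processing notes name RMA and Affymetrix Expression Console. Versions and genome build: not given in the sources used here. RMA brings the arrays to one distribution and leaves no measure of signal over background. Groups and replicate numbers follow the titles. The members, lists, naming rule and alternatives were chosen with earlier results of these data known.

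For each gene, the probe set annotated with exactly 1 symbol and with the highest mean over the 6 arrays was used (21789 such probe sets, 19938 genes). Symbols were looked up in a RefSeq table by Entrez identifier, which matched 21698 probe sets. The groups were compared with limma 3.58.1 (lmFit, eBayes) under R 4.3.3, two-sided, with Benjamini-Hochberg adjustment over all genes and a threshold of 0.05. The median standard error was 0.101, and the 3 arrays per group limit the precision. On simulated data of 19938 genes with 200 changed, the fit for VPA minus control recovered 94% of changes of size 1 and 79% of size 0.7. The simulated noise was independent between arrays, and no smaller size was simulated. Recovery of the smaller differences described here was therefore not measured.

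The text names all members and the 5 genes most like Gsta4. From each other list it names the genes that passed (up to 3 in each direction) or else the 2 with the smallest p. Other genes named were added outside this rule. Among them are Gstp1, Gsta3, Gstm3, the cell type markers, the genes shown by chromosomal position and those stated as added. The alternatives were a filter on low values (3 or more arrays at a log2 of 6 or higher), a second quantile normalization, median centring, a trended robust prior, a replicate block, averaging of probe sets per gene, every probe set tested, array weights and leaving out each array. List entries without a tested gene were not used here.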

Additional observations from a re-analysis of the deposited data

How the results depend on the processing

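Under the 14 alternatives Gsta4 lay between 1.23 and 1.47 on the log2 scale, and Gstt1 and Mgst3 were called in 8 and 9 of them. These genes kept their direction, which leaving out an array could not change, as their groups did not overlap. Without single arrays the count of genes called ranged from 20 to 815, that of members, Gsta4 included, from 1 to 3 and that of the pathway genes from 0 to 7. When all probe sets in the table were tested, these counts were 2, 0 and 0, and the adjusted p was 0.198 for Gstt1 and 0.151 for Mgst3; the cause was not tested. With array weights 714 genes and 8 pathway genes were called, with a trended robust prior 6 pathway genes and with the filter on low values 5. Same-numbered control and VPA arrays correlated in their deviations from the group means at 0.08, 0.45 and 0.28 for numbers 1, 2 and 3. Differently numbered arrays correlated at -0.43 (control 2 and VPA 3) to 0.20 (control 1 and VPA 3). No pairing is stated in the sources used here, so the numbers were not taken as pairs. With the replicate number as a block, the counts were 1199 genes, 3 members and 18 pathway genes. The limma adjusted p then fell below 0.05 for Gstt3 (0.00821), Gstm7 (0.0424), Glrx (0.00883), Txnrd3 (0.0161), Aox1 (0.00594), Keap1 (0.0409) and Blvrb (0.0293). Of these, Aox1 and Keap1 were lower with VPA and the others higher. Scaling left the members' count at 3. The differences of Gsto1 and Mgst2, which did not pass, changed sign: without single arrays Gsto1 ranged from -0.0691 (control 3 left out) over -0.0557 (VPA 2) to 0.216 (VPA 3), and Mgst2 from -0.169 (VPA 3) over 0.0067 (VPA 1) to 0.0242 (control 3). Low signals have no detection call, which limits what can be said of Gstt2, Mgst2, Mgst3, Dpep1 and the alpha class probe sets other than that of Gsta4.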

Other observations

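Probe sets annotated with both Gstp1 and Gstp2 name no single gene. The 2 of them had differences of 0.25 and 0.28 between VPA and control, with log2 means of 9.92 and 9.86 with VPA and 9.67 and 9.58 in the controls. For Gstm3, which has 2 probe sets, the differences were 0.25 for the one used and 0.10 for the other.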
